A study of Homo sapiens with 15 samples.

Results

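The genes described here are 44 genes of mitosis and the spindle, of 25681 gene symbols in the count tables. They were chosen by symbol, with earlier results of these data known. Where a symbol had several transcript rows, the one with most counts summed over the 15 libraries stood for it. The RNA came from HSSYII cells, a line grown from a synovial sarcoma with the fusion gene SS18-SSX1, kept below passage 12. In the first experiment cells were given 100 nM dBRD9-A or, as vehicle, DMSO and harvested after 6 hr. dBRD9-A is a small molecule that causes degradation of the bromodomain protein BRD9. In the second experiment cells were harvested 96 hr after infection with lentivirus for shSS18-SSX1-1 or shSS18-SSX1-2, hairpins against the fusion transcript, or for shRenilla, a control hairpin against a luciferase. Each of the 5 groups had 3 libraries, and all groups carry the fusion gene. The viruses also carried GFP and were used at a multiplicity of infection of 1.0 without drug selection, so a hairpin library may hold RNA of uninfected cells. No source used here says whether replicate libraries came from separate cultures, so the spread behind each p-value is that of libraries and may be technical.

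Cells enter mitosis when cyclin B and CDK1 are activated by CDC25 phosphatases. Kinetochores then attach chromosomes to spindle microtubules, the spindle checkpoint holds back the anaphase-promoting complex until all are attached, and destruction of securin and cyclin B starts anaphase and cytokinesis. Most of these genes are transcribed late in the cell cycle. The DREAM complex represses them in resting cells, and MYBL2 and FOXM1, joined to the MuvB core of that complex, activate them in G2. Their promoters are known for the cell cycle genes homology region (CHR), which LIN54 of MuvB contacts, and the CCAAT box, which NF-Y binds. Rapidly dividing cells hold more of these mRNAs than resting cells, so the group is a common measure of proliferation.

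Promoters of 38 of the 44 members were found in the RefSeq promoter table (assembly GRCh38.p14). TPX2, BIRC5, TTK, AURKA, UBE2C and BUB3 were the members with no entry. The 250 bases before each annotated start were searched on both strands for the CHR, spelled TTTGAA or TTCGAA, and for CCAAT. They were also searched for the site of E2F transcription factors, spelled TTTGGCGC, TTTCGCGC, TTTCCCGC or TTTGCCGC. A CHR match was found for 23 of 38 members (60.5%), against 13.4% of 10358 tested genes with an entry. A CCAAT match was found for 32 of 38 (84.2%), against 41.1% of those genes. Both were found for 21 of 38 (55.3%), against 5.3%. An E2F match was found for 3 of 38 (7.9%), against 5.4%. Counted per promoter, since some genes have several, 25 of 48 member promoters held a CHR match (52.1%), against 14.3% of all 35116 promoters, and 37 of 48 held CCAAT (77.1%), against 32.0%. The CHR match lay within the last 70 bases before the start in 18 of 38 members, and in 3.3% of all promoters. These shares are on unlike units, since a member counts if any of its promoters has such a match.

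Stretches of 5 members before the start are shown to let the spacing be seen, with CHR and CCAAT matches of either strand in capitals. CCNB2 (cyclin B2) has the arrangement known for this class, MKI67 has a pair of CHR matches, the last of which overlaps a CCAAT match, CENPF and BUB1 had 2 of the largest falls with dBRD9-A, and CDC25B was the only member higher with SS18-SSX1 knockdown. Stretches begin 130 bases before the start and stop where an exon is annotated on GRCh37, and each matched 1 place on its GRCh37 chromosome.
CCNB2, chr15:59397215-59397324, plus strand: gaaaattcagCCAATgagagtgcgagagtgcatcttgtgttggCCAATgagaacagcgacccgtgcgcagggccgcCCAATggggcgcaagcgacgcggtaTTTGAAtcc
MKI67, chr10:129924688-129924817, minus strand: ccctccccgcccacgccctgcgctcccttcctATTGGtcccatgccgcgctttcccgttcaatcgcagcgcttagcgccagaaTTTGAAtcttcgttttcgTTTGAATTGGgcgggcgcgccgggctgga
CENPF, chr1:214776408-214776527, plus strand: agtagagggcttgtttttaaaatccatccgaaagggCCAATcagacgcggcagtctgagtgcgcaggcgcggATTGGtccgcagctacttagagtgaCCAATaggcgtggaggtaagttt
BUB1, chr2:111435641-111435770, minus strand: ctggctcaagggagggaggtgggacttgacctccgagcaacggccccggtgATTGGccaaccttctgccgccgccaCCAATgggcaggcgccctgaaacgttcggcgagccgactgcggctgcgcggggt
CDC25B, chr20:3776827-3776937, plus strand: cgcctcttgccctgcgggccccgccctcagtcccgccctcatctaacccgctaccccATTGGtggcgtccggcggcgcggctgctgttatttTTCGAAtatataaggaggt
The CDC25B stretch belongs to 1 of its 4 annotated promoters. The CHR match begins at base -29 from the start in CCNB2, at -47 and -29 in MKI67 and at -38 in CDC25B. CENPF and BUB1 have 3 and 2 CCAAT matches and no CHR match in these stretches. This does not hold for all large falls with dBRD9-A. HMMR, which is not shown, had a log2 fold change of -0.234, between those of CENPF (-0.272) and BUB1 (-0.231). Its promoter has CHR matches at -28 and -22. These are matches of letters and not measured binding sites, and a CHR of another spelling would not be found.

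Total counts per library were 18580419 to 27031647 over 1 row per gene, a depth at which 43 of the 44 members passed the filter on low counts. SSX1, which is part of the fusion transcript, had 20.8, 20.6 and 18.7 CPM with shSS18-SSX1-1 and 28.5, 28.8 and 27.3 CPM with shSS18-SSX1-2, against 77.7, 58.4 and 55.02 CPM with shRenilla (CPM, each count relative to its library total, scaled by TMM within each experiment). The near-identical copies SSX2 and SSX4 reached 2 counts at most. Of 6 markers of the cell line, CD99 had 0 counts in every library and SS18, SSX1, TLE1, BCL2 and ZIC1 were measured. Of these 5, 3 fell with knockdown, 2 of them by more than 1.5-fold (edgeR, adjusted p under 0.05). With dBRD9-A 1 fell, and none rose in either comparison. Of all genes, 22.1% fell with knockdown, 5.9% by more than 1.5-fold, and 18.2% fell with dBRD9-A. Replicate 1 of shRenilla stood apart. Its chi-square over genes, divided by the degrees of freedom, was 34.6 and 25.6 against replicates 2 and 3, while no other replicate pair exceeded 9.32. Of 6 fibroblast and smooth muscle markers, 4 were tested with knockdown and all 4 rose (COL1A1, COL3A1, ACTA2 and TAGLN), while LUM and DCN did not pass the filter. Their summed level was 1127 to 1148 CPM with shSS18-SSX1-1 and 1251 to 1411 CPM with shSS18-SSX1-2, against 22.2 to 28.6 CPM with shRenilla, and 19.7 to 21.9 CPM with dBRD9-A against 17.8 to 19.1 CPM with DMSO. Summed endothelial markers were at most 1.86 CPM and summed leukocyte markers at most 6.79 CPM in any library. The part of these markers in the results was not tested.

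KIFC1, a minus-end motor that gathers spindle poles, was the member with no test. It had 1 count over all 15 libraries. Its locus (GRCh37 chr6:33359600-33377673) has 9 other protein-coding genes of the tables within 100 kb on either side, and 4 of these had at most 100 counts over all libraries, PFDN6, ZBTB22 and CUTA with 0. This value was therefore not read as a lack of KIFC1 mRNA. The 44 loci lie on 17 chromosomes. Loci of 13 members overlap another protein-coding gene (CCNA2, CDC25C, PLK1, BUB1B, CENPA, HJURP, NUF2, SPC25, KIF20A, KIF4A, NUSAP1, PRC1 and ANLN), and the counting is not stated to use strand, so reads of overlapping genes cannot be told apart. PTTG1 and KIF4A have near-identical copies, PTTG2 with at most 2 counts and KIF4B with at most 7 counts in any library.

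The first comparison asked which mitotic genes had changed 6 hr after dBRD9-A. Most had not passed the test, and those that did changed little. CENPF, a large kinetochore and nuclear matrix protein of G2 and mitosis, the spindle protein HMMR and the checkpoint kinase BUB1 fell, while CDCA8 of the chromosomal passenger complex and the kinesins KIF23 and KIF4A rose. Of 43 members tested, 10 fell and 3 rose (edgeR quasi-likelihood test, adjusted p under 0.05 at any fold), beside 18.2% of all 13652 genes tested that fell and 17.7% that rose, 35.9% in all. Without DMSO replicate 2, 15 fell and 1 rose, and without dBRD9-A replicate 2, 7 fell and 1 rose. The share of members called, 13 of 43, is no higher than that background. None of the members changed by more than 1.5-fold, which 0.593% of all genes did downward and 2.23% upward. The median log2 fold change of the members was -0.04, beside 0.01 for all genes, and 17 of 43 had a positive value.

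CENPF had 894, 867 and 929 CPM with dBRD9-A, against 1121, 1038 and 1090 CPM with DMSO. Its log2 fold change came to -0.27 (standard error, SE, 0.0287, adjusted p = 8.00e-09). All dBRD9-A libraries lay below all DMSO libraries. CENPE, a kinesin that carries chromosomes to the spindle equator, had 175, 169 and 171 CPM with dBRD9-A, against 198, 185 and 201 CPM with DMSO. It fell by 0.18 on the log2 scale (SE 0.0345, adjusted p = 0.000133), again with no overlap. SPC25, a subunit of the NDC80 complex that grips microtubules, had 42.5, 41.7 and 43.04 CPM with dBRD9-A, against 44.9, 45.6 and 47.5 CPM with DMSO. SPC25 fell by 0.12 (adjusted p = 0.0459), a call that was lost in 11 of 15 alternatives, among them DESeq2, upper quartile scaling and leaving out DMSO replicate 3 or any 1 of the dBRD9-A replicates. The other kinetochore members did not pass. Their log2 fold changes were -0.06 for CENPA, the histone of centromeres, -0.04 for NUF2, 0.05 for NDC80 and 0.07 for HJURP, the chaperone of CENPA.

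BUB1 had 154, 156 and 157 CPM with dBRD9-A, against 192, 173 and 183 CPM with DMSO. It fell by 0.23 on the log2 scale (SE 0.0356, adjusted p = 5.76e-06) with no overlap. The rest of the spindle checkpoint did not pass, with values from -0.05 for TTK, the kinase that starts checkpoint signalling, to 0.01 for BUB3, and with MAD2L1 at -0.04 and BUB1B at 0.00.

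HMMR, a microtubule-binding protein also known as a hyaluronan receptor, had 75.1, 79.2 and 81.7 CPM with dBRD9-A, against 91.7, 89.4 and 96.5 CPM with DMSO. It fell by 0.23 (SE 0.0411, adjusted p = 3.92e-05). KIF20A, a kinesin of the midzone and of cytokinesis, had 152, 152 and 149 CPM with dBRD9-A, against 171, 169 and 166 CPM with DMSO. KIF20A fell by 0.16 (SE 0.0329, adjusted p = 0.000356), and neither gene overlapped between the groups. KIF23, the motor of centralspindlin, went the other way, with 283, 288 and 287 CPM with dBRD9-A, against 272, 254 and 272 CPM with DMSO. Its log2 fold change was 0.11 (SE 0.0314, adjusted p = 0.00911), and the call was lost without DMSO replicate 2 and without dBRD9-A replicate 2. KIF4A, a chromokinesin, had 206, 206 and 202 CPM with dBRD9-A, against 199.8, 189.8 and 190.1 CPM with DMSO. It rose by 0.08 (SE 0.0322, adjusted p = 0.0475), a call lost in 11 of 15 alternatives, among them DESeq2 and leaving out DMSO replicate 2 or 3 or any 1 of the dBRD9-A replicates. DLGAP5, which bundles kinetochore fibres, fell by 0.10 (adjusted p = 0.0314), and that call was lost in 8 of 15 alternatives, among them upper quartile scaling and leaving out any 1 library other than DMSO replicate 2. KIF11, KIF2C, TPX2, NUSAP1 and PRC1 lay between -0.07 and -0.03 and did not pass.

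TOP2A, the topoisomerase that untangles chromosomes, had 1192, 1187 and 1199.7 CPM with dBRD9-A, against 1339.6, 1254 and 1313 CPM with DMSO. It fell by 0.13 on the log2 scale (SE 0.0257, adjusted p = 0.000239) with no overlap. MKI67, the chromosome surface protein detected as Ki-67, had 874, 878 and 954 CPM with dBRD9-A, against 1033, 939 and 977 CPM with DMSO. It fell by 0.12 (SE 0.0326, adjusted p = 0.00396), although 1 dBRD9-A library lay above 1 DMSO library. ECT2, the exchange factor that activates RhoA at the division furrow, fell by 0.09 (adjusted p = 0.0332), a call lost in 9 of 15 alternatives, among them upper quartile scaling and leaving out any 1 library other than DMSO replicate 2. ANLN, a furrow scaffold, had -0.07 and did not pass.

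CDCA8, also called borealin, had 90.7, 93.9 and 91.4 CPM with dBRD9-A, against 83.2, 82.3 and 83.2 CPM with DMSO. Its log2 fold change was 0.15 (SE 0.0377, adjusted p = 0.00206), and all dBRD9-A libraries lay above all DMSO libraries. Its partners in the passenger complex did not pass, with values of 0.01 for the kinase AURKB, 0.06 for BIRC5 (survivin) and -0.05 for INCENP.

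The switch into mitosis showed no call. CCNB1 (cyclin B1) had 265, 259 and 259 CPM with dBRD9-A, against 253, 262 and 254 CPM with DMSO, a log2 fold change of 0.03 (SE 0.0301, adjusted p = 0.496). CDK1 had 264, 276 and 258 CPM with dBRD9-A, against 270.3, 250.4 and 275 CPM with DMSO, a log2 fold change of 0.00 (SE 0.0342, adjusted p = 0.933). Both groups overlapped for both genes. CCNB2, CCNA2 and CDC25B lay between -0.05 and 0.01, and CDC25C, a phosphatase that activates CDK1, had 0.14 with a standard error of 0.0685. The mitotic kinases had -0.04 (NEK2), -0.03 (AURKA) and 0.06 (PLK1), and the genes of anaphase control had -0.09 (PTTG1, securin), 0.00 (CDC20), 0.01 (UBE2C) and 0.04 (ESPL1, separase). A p above the threshold does not show that these genes were unchanged.

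Between libraries with no test, 13 of 43 members had all dBRD9-A values below all DMSO values and 5 had all above, beside 22.2% and 23.8% of all genes. The summed level of the members was 9706 ± 27.7 CPM with dBRD9-A and 10211 ± 243 CPM with DMSO (SD, n = 3 each), a difference of -4.95%. The largest parts of this sum were TOP2A, CENPF and MKI67 (means of 1302, 1083 and 983 CPM with DMSO), which all fell. The difference in the sum is therefore not one shared by all members, of which 17 of 43 had a positive log2 fold change. Only the calls of CENPF, HMMR and BUB1 were kept under all 15 alternatives tried for this comparison. In a fit of all 15 libraries, where the common coefficient of variation was 7.08% in place of 2.78%, these 3 were the only members called. With upper quartile scaling 7 members fell and 4 rose.

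**Figure D1:**
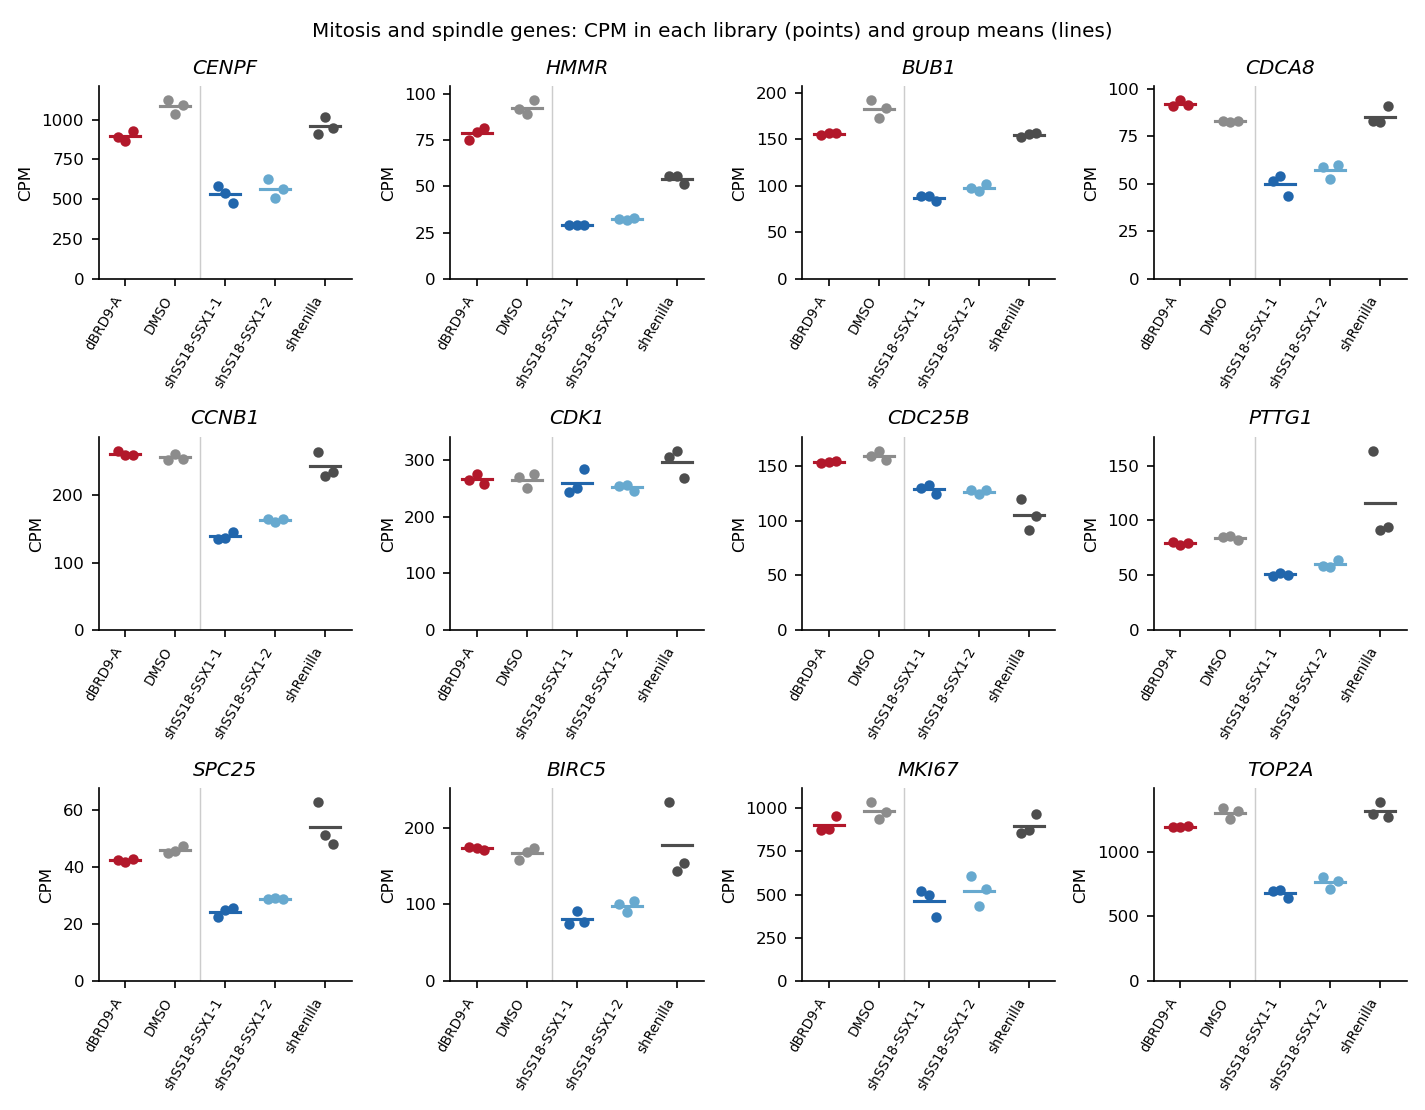
CPM of 12 members in every library (points) with the mean of 3 libraries (lines), with groups on the horizontal axis and a grey line between the experiments. CENPF, HMMR and BUB1 are lower with dBRD9-A than with DMSO, CDK1 overlaps between groups in both experiments, and PTTG1 and BIRC5 have 1 high shRenilla library, 163 and 233 CPM.

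The second comparison asked how the same genes stood 96 hr after infection with hairpins against SS18-SSX1. Nearly the whole group was lower. Cyclins, mitotic kinases, checkpoint, kinetochore and spindle genes fell, and CDC25B rose. No test compared the roles with each other. Of 43 members tested, 42 fell and 1 rose (mean of both hairpins against shRenilla, edgeR, adjusted p under 0.05 at any fold), beside 22.1% of all 14269 genes tested that fell and 22.5% that rose, 44.6% in all. Of these, 38 fell by more than 1.5-fold, beside 5.9% of all genes, and none rose by as much, beside 12.5%. The median log2 fold change was -0.70, beside -0.01 for all genes. All 6 hairpin libraries lay below all 3 shRenilla libraries for 41 of 43 members, beside 18.4% of all genes, and above them for 1, beside 20.4%. Bulk RNA cannot tell fewer dividing cells from less of these mRNAs per cell. Without shRenilla replicate 1, 41 members fell, 35 of them by more than 1.5-fold, with a median of -0.69.

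Among genes of anaphase control, PTTG1 (securin), which blocks separase until anaphase, had a log2 fold change of -1.08. It had 49.1, 52.4 and 50.5 CPM with shSS18-SSX1-1 and 58.8, 57.6 and 63.9 CPM with shSS18-SSX1-2, against 163, 91.5 and 94.2 CPM with shRenilla. The fall had an SE of 0.142 (adjusted p = 3.09e-05). The groups did not overlap, but shRenilla replicate 1 was far above both others, and without it the value was -0.74, which SPC25 (-0.89), MKI67 (-0.89), TOP2A (-0.87) and NUF2 (-0.86) among others were below. ESPL1 fell by 0.79, CDC20, the activator of the anaphase-promoting complex, fell by 0.63 and UBE2C, its E2 enzyme, fell by 0.59.

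All 7 kinetochore and centromere members fell, by 0.63 (CENPA) to 1.03 (SPC25). SPC25 had 22.5, 25.1 and 25.7 CPM with shSS18-SSX1-1 and 28.7, 29.3 and 28.8 CPM with shSS18-SSX1-2, against 62.9, 51.5 and 48.3 CPM with shRenilla. It had a standard error of 0.0858 and an adjusted p = 3.58e-07. NUF2, from the same complex, had 60.4, 62.4 and 64.7 CPM with shSS18-SSX1-1 and 71.9, 71.1 and 69.7 CPM with shSS18-SSX1-2, against 121, 129 and 115 CPM with shRenilla. NUF2 fell by 0.87 (SE 0.0613, adjusted p = 6.21e-08), beside 0.85 for NDC80. Neither SPC25 nor NUF2 overlapped between hairpin and shRenilla libraries. HJURP fell by 0.71 and CENPE by 0.69, and CENPF, whose fall with dBRD9-A was the largest of the members, fell by 0.81.

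The passenger complex fell as a whole, 4 of 4. BIRC5 had 74.9, 92.0 and 76.9 CPM with shSS18-SSX1-1 and 99.9, 89.8 and 104 CPM with shSS18-SSX1-2, against 233, 144 and 154 CPM with shRenilla. Its log2 fold change was -0.99 (SE 0.127, adjusted p = 2.26e-05) and -0.73 without shRenilla replicate 1, the high library. AURKB fell by 0.82, CDCA8 by 0.68 and INCENP by 0.68. All 5 checkpoint genes fell, by 0.57 (MAD2L1) to 0.74 (BUB1), and all 3 mitotic kinases fell, AURKA by 0.80, NEK2 by 0.78 and PLK1 by 0.72.

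All 10 kinesins and spindle proteins tested fell, by 0.51 (KIF2C, a microtubule depolymerase) to 0.89 (DLGAP5). DLGAP5 had 73.2, 69.6 and 70.8 CPM with shSS18-SSX1-1 and 82.3, 77.5 and 80.1 CPM with shSS18-SSX1-2, against 152, 138 and 129.7 CPM with shRenilla. Its groups were well apart (SE 0.0644, adjusted p = 8.15e-08). HMMR and KIF11, the motor that drives spindle poles apart, fell by 0.81 each. The kinesins KIF23 and KIF4A, which rose with dBRD9-A, fell by 0.60 and 0.81 here. The remaining log2 fold changes were -0.75 for NUSAP1, -0.70 for TPX2, -0.65 for PRC1 and -0.62 for KIF20A.

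MKI67 had 521, 496 and 368 CPM with shSS18-SSX1-1 and 604, 432 and 529 CPM with shSS18-SSX1-2, against 857, 873 and 964 CPM with shRenilla. It fell by 0.87 (SE 0.111, adjusted p = 2.25e-05) and varied more between hairpin libraries than most members. TOP2A had 693, 701 and 638 CPM with shSS18-SSX1-1 and 805, 709 and 775 CPM with shSS18-SSX1-2, against 1289, 1381 and 1271 CPM with shRenilla. It fell by 0.87 too (SE 0.0640, adjusted p = 9.81e-08), and no library of either gene overlapped between the hairpins and shRenilla. Of the cytokinesis genes ECT2 fell by 0.60 and ANLN by 0.44.

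The genes of the switch into mitosis split. CCNB1 had 135, 137 and 145 CPM with shSS18-SSX1-1 and 165, 160.1 and 164 CPM with shSS18-SSX1-2, against 265, 229 and 234 CPM with shRenilla. It fell by 0.69 (SE 0.0628, adjusted p = 7.88e-07), beside 0.70 for CCNB2, 0.67 for CCNA2 and 0.67 for CDC25C. CDK1, the kinase these cyclins bind, had 243, 251 and 284 CPM with shSS18-SSX1-1 and 254, 256 and 245 CPM with shSS18-SSX1-2, against 306, 315 and 269 CPM with shRenilla. It was the only member whose groups overlapped. CDK1 fell by 0.22 (SE 0.0709, adjusted p = 0.0241). This was the one call of the 43 that was lost under alternatives, among them leaving out shRenilla replicate 1 or 2, shSS18-SSX1-1 replicate 1 or 2, or any 1 of the shSS18-SSX1-2 replicates. All 4 CDK1 transcript rows gave nearly the same log2 ratio, from -0.22 to -0.20.

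CDC25B, the phosphatase that acts first on CDK1 at the centrosome, was the exception in direction. It had 130.003, 133 and 124 CPM with shSS18-SSX1-1 and 128, 124 and 128 CPM with shSS18-SSX1-2, against 120.0, 91.1 and 104 CPM with shRenilla. Every hairpin library lay above every shRenilla library, and the log2 fold change was 0.28 (SE 0.0796, adjusted p = 0.0106). Its 10 transcript rows ranged from 0.28 to 0.29. For the mean of both hairpins, no alternative tried ended the calls of the 42 members other than CDK1.

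**Figure D2:**
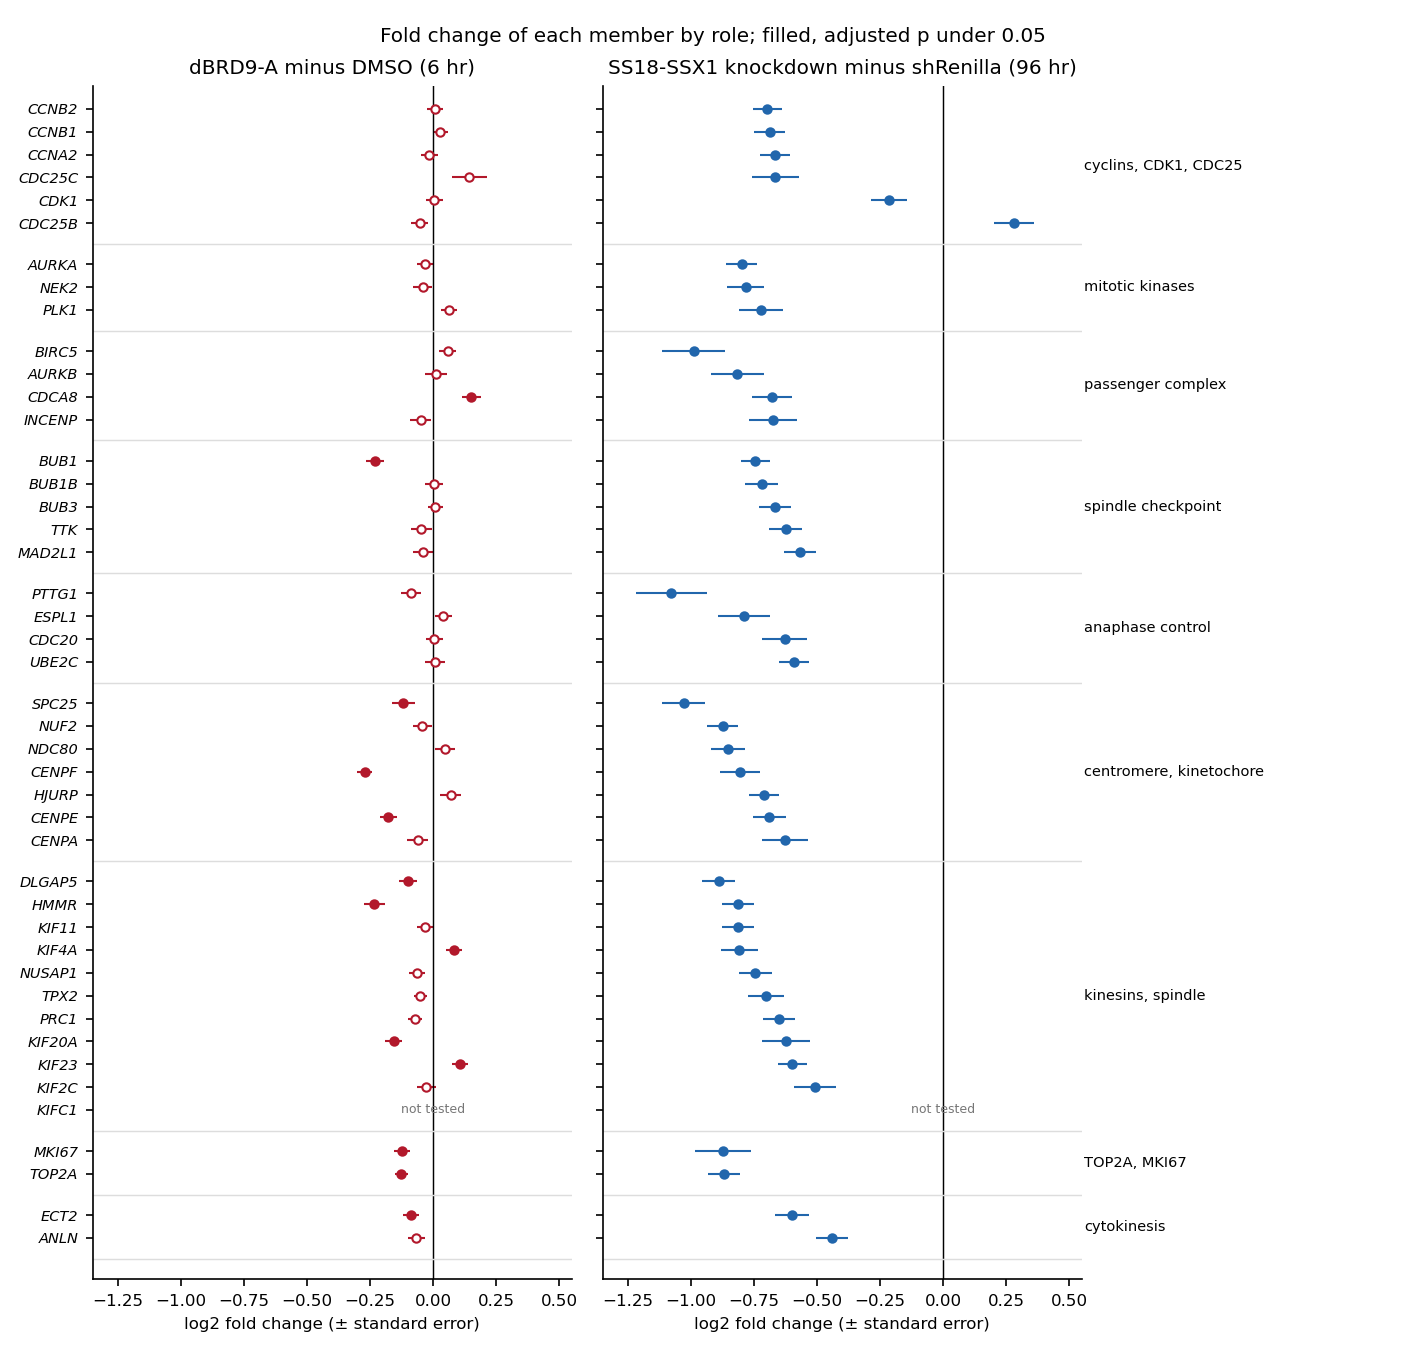
Log2 fold change of each member with its standard error, by role, for dBRD9-A minus DMSO (left, red) and knockdown minus shRenilla (right, blue), with filled points for an adjusted p under 0.05. With dBRD9-A the values run from -0.27 (CENPF) to 0.15 (CDCA8), and with knockdown from -1.08 (PTTG1) to 0.28 (CDC25B).

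Each hairpin was then taken by itself against the shRenilla libraries, which both share. With shSS18-SSX1-1, 41 members fell and 1 rose, beside 19.5% and 22% of all genes (41.5% in all), and 39 fell by more than 1.5-fold, beside 6.95% (13.1% of all genes rose by as much). With shSS18-SSX1-2, 42 fell and 1 rose, beside 15.9% and 18.3% of all genes (34.2% in all), and 26 fell by more than 1.5-fold, beside 4.35% (11.5% of all genes rose by as much). CDC25B was the 1 that rose with each hairpin. Without shRenilla replicate 2 or 3, or any 1 of the shSS18-SSX1-2 replicates, no member was called higher with shSS18-SSX1-2. Without shSS18-SSX1-1 replicate 1 or 2, none was called higher with shSS18-SSX1-1. The summed level of the members was 5633 ± 259 CPM for hairpin 1 and 6262 ± 350 CPM for hairpin 2 (shSS18-SSX1-1 and shSS18-SSX1-2), against 9771 ± 195 CPM for shRenilla (SD, n = 3 each), differences of -42.3% and -35.9%. The mean of PTTG1 was 43.6% of the shRenilla mean with shSS18-SSX1-1 and 51.7% with shSS18-SSX1-2, values that rest in part on the high shRenilla replicate 1. Without shRenilla replicate 1, 38 members fell by more than 1.5-fold with shSS18-SSX1-1 and 22 with shSS18-SSX1-2.

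Members were mostly higher with shSS18-SSX1-2 than with shSS18-SSX1-1, but no single member passed the main test, the edgeR fit of 9 libraries. The log2 difference of shSS18-SSX1-2 minus shSS18-SSX1-1 was positive for 40 of 43 members, with a median of 0.18, beside -0.01 for all genes. All 3 shSS18-SSX1-2 libraries lay above all 3 shSS18-SSX1-1 libraries for 29 of 43 members, beside 9.1% of all genes. The largest differences were 0.27 for BIRC5 and 0.25 for HJURP (SE 0.152 and 0.0717, adjusted p = 0.76 and 0.222). By edgeR 0 of 43 members were called in either direction, beside 0.147% of all genes (0.119% higher and 0.028% lower, and 0.112% and 0.00701% by more than 1.5-fold), and 20 had an unadjusted p under 0.05, beside 1142 of all 14269 genes. These 20 became 12 without shSS18-SSX1-1 replicate 1, 7 without shSS18-SSX1-1 replicate 3, and 5 each without shSS18-SSX1-2 replicate 1 or 3. DESeq2 called 1 member, beside 133 higher and 29 lower among all genes, and limma with voom called 0. The fit of all 15 libraries called 4 members, all higher, beside 205 higher and 41 lower of 14560 genes. SSX1 lay in the same direction, with means of 28.2 ± 0.776 CPM for shSS18-SSX1-2 and 20.05 ± 1.17 CPM for shSS18-SSX1-1 (n = 3 each, SD). None of the 5 markers of the cell line tested, SSX1 among them, passed the edgeR test between hairpins. The part of SSX1 in the difference of the members was not tested.

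**Figure D3:**
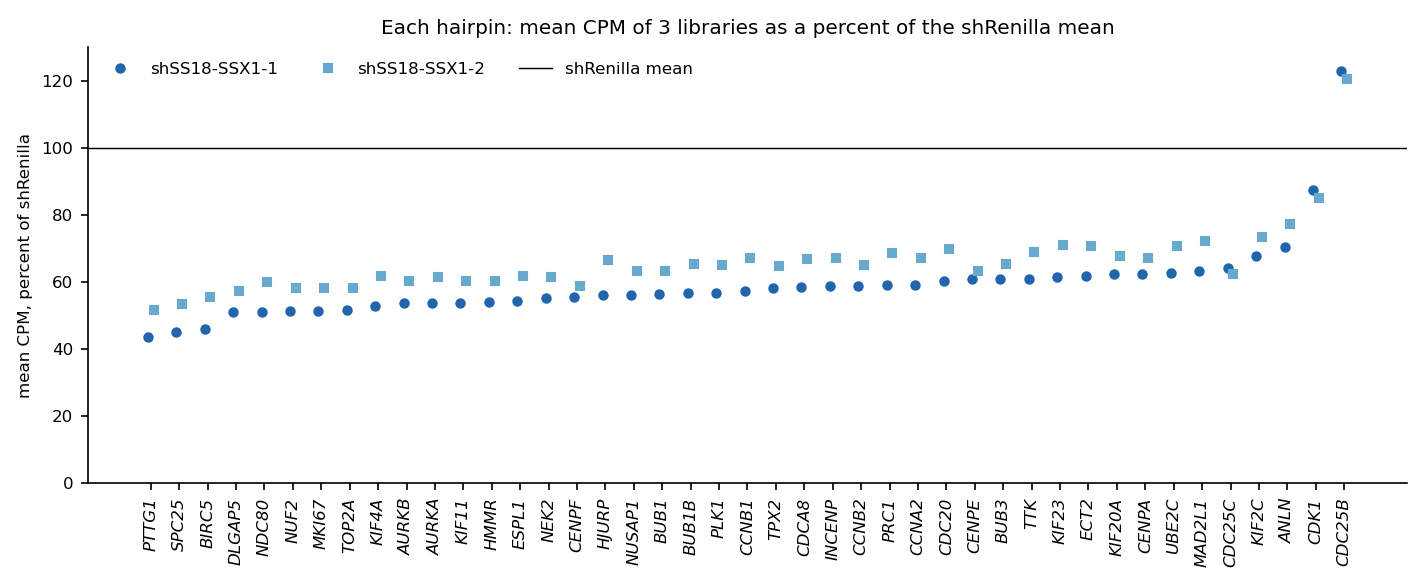
Mean CPM of each member with shSS18-SSX1-1 (circles) and shSS18-SSX1-2 (squares) as a percent of the shRenilla mean (line at 100), 3 libraries each, with members ordered by the value for shSS18-SSX1-1. PTTG1 is at 43.6% and 51.7%, and the squares lie above the circles for most members, while CDC25B is above 100 with both.

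The effects of dBRD9-A and of knockdown were compared directly in a fit of all 15 libraries. The difference, dBRD9-A effect minus knockdown effect, passed the test with a positive sign for 41 of 43 members, beside 17.5% of 14560 genes, and with a negative sign for CDC25B alone, beside 19%, 36.6% in all. It exceeded 1.5-fold for 28 members with a positive sign and 0 with a negative one, beside 6.81% and 10.5% of all genes. For CDC25B the difference was -0.36 (SE 0.0949, adjusted p = 0.00641). For CDK1 it was 0.20 (SE 0.0902, adjusted p = 0.0965). It was smallest among the 41 for ANLN, 0.35, and largest for BIRC5, 1.02, and CENPF had 0.51 (adjusted p = 0.000678). Time, delivery and control differ between the experiments and cannot be told apart from the agent. CPM was scaled within each experiment, so levels across them are a description. The shRenilla mean over the DMSO mean had a median of 0.976 over the 43 members and ran from 0.585 for HMMR (54.1 ± 2.55 CPM with shRenilla and 92.5 ± 3.64 CPM with DMSO) to 1.38 for PTTG1 (SD, n = 3 each).

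Other genes of mitosis were given by lists. Of 91 further mitosis genes, 29 fell and 15 rose with dBRD9-A, beside the 18.2% and 17.7% of all genes, with a median of -0.02. In the fit of all 15 libraries 7 of these 44 calls were made. Condensin, the complex that compacts mitotic chromosomes, had 5 of 8 subunits lower and 1 higher. NCAPD3 fell by 0.25 and NCAPD2 by 0.21, while NCAPH2 rose by 0.16. Of 33 further kinetochore genes 8 fell and 5 rose with dBRD9-A, with CENPK at -0.33 and PMF1 at 0.33. Of the spindle and cytokinesis genes 9 of 24 fell and 5 rose, with KIF15 at -0.29, and of 11 kinases and other regulators of mitotic entry and the centrosome 4 fell and 2 rose. In the list of the anaphase-promoting complex 3 of 15 fell and 2 rose. With knockdown 79 of the 91 fell and 3 rose, beside 22.1% and 22.5% of all genes, with a median of -0.53. All 8 condensin subunits, 32 of 33 kinetochore genes and 23 of 24 spindle and cytokinesis genes fell, led by NCAPG with -0.85, CENPM with -0.90 and KIF15 with -0.93. Of 15 genes of the anaphase-promoting complex and its regulators 8 fell and 7 did not pass, UBE2S with -0.66 being the lowest. In the list of mitotic entry 8 of 11 fell, the phosphatase gene CDC25A by 0.91. The 3 genes that rose were WEE1, the kinase that inhibits CDK1, with 0.46, NEK7 with 0.36 and the kinetochore gene CENPP with 0.29.

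Regulators of mitotic transcription were measured beside their known targets. With knockdown 8 of 14 fell and none of 14 rose, beside 22.1% and 22.5% of all genes. MYBL2 had 193, 213 and 161 CPM with shSS18-SSX1-1 and 249.7, 203 and 247 CPM with shSS18-SSX1-2, against 472, 317 and 383 CPM with shRenilla. MYBL2 fell by 0.90 on the log2 scale (SE 0.115, adjusted p = 2.35e-05). FOXM1 had 151, 156 and 132 CPM with shSS18-SSX1-1 and 175, 154 and 183 CPM with shSS18-SSX1-2, against 292, 237 and 269 CPM with shRenilla. FOXM1 fell by 0.75 (SE 0.0812, adjusted p = 4.59e-06), and neither gene overlapped between the groups. RBL1, a pocket protein of DREAM, fell by 0.62. With dBRD9-A 6 of 14 rose and 1 fell, beside 17.7% and 18.2% of all genes. LIN37 and LIN52 of the MuvB core rose by 0.28 and 0.27, NFYA, the subunit of NF-Y that contacts CCAAT, rose by 0.28, and the pocket protein RBL2 fell by 0.22. FOXM1 (-0.06, adjusted p = 0.103) and MYBL2 (0.06, adjusted p = 0.0976) did not pass with dBRD9-A. In the fit of all 15 libraries 1 of these 7 dBRD9-A calls was made.

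Genes of S phase and DNA replication, the other class that follows proliferation, were counted in the same way. Of 39, 21 rose and 3 fell with dBRD9-A, with a median of 0.09, beside 17.7% and 18.2% of all genes. CCNE2, a cyclin of the start of S phase, and LIG1, a DNA ligase, rose by 0.37 each and CCNE1 rose by 0.33. The 3 that fell were POLE2 and POLA1, DNA polymerase subunits, each by 0.20, and the clamp loader subunit RFC4 by 0.11. These 24 calls became 15 with DESeq2, 13 without DMSO replicate 3, 12 without dBRD9-A replicate 1, 13 without dBRD9-A replicate 2 and 4 in the fit of all 15 libraries. Whether the members and this list differ was not tested. With knockdown 37 of 39 fell and none of 39 rose, beside 22.1% and 22.5% of all genes, with a median of -0.67. GINS2 of the replicative helicase fell by 1.02, CDC45 by 0.99 and RRM2, a subunit of ribonucleotide reductase, by 0.87.

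**Figure D4:**
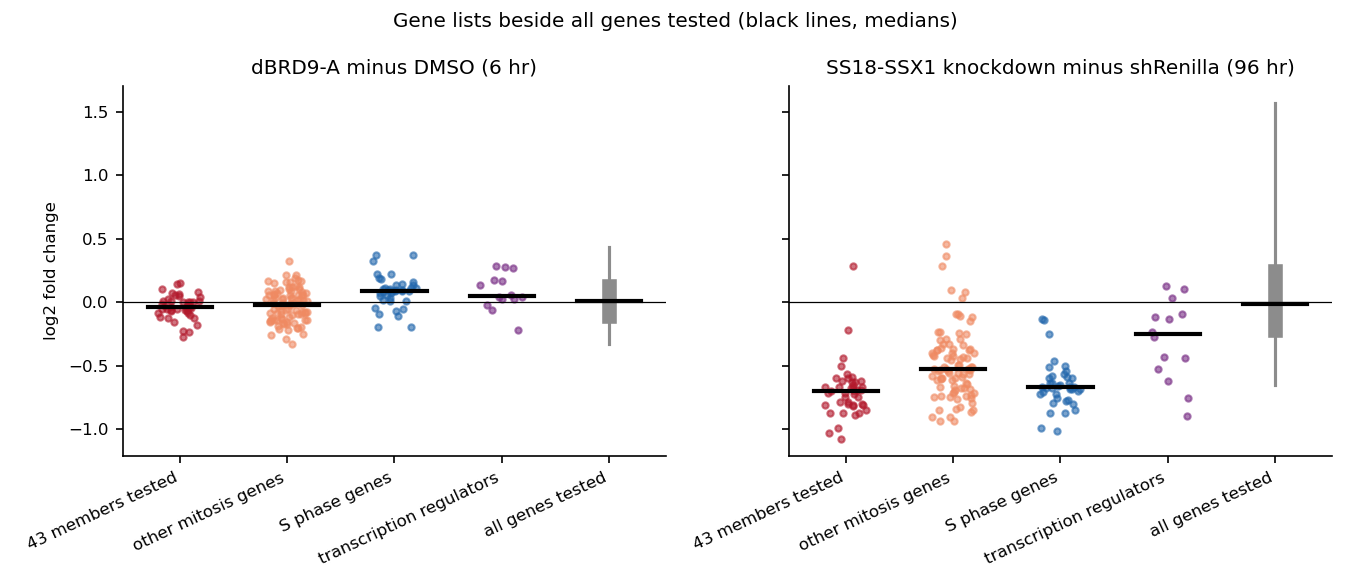
Log2 fold change of the 43 members tested, 91 other mitosis genes, 39 S phase genes and 14 transcription regulators (points, medians as black lines) with dBRD9-A (left) and knockdown (right), beside all genes tested (thick bar, 25th to 75th percentile, thin line, 5th to 95th percentile). The member medians are -0.04 with dBRD9-A and -0.70 with knockdown, and the S phase medians are 0.09 and -0.67.

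The promoter matches were set beside the fold changes as a description. A member without a CHR match held neither spelling searched, which does not show that it has no CHR. With knockdown the median log2 fold change was -0.70 for 23 members with a CHR match and -0.745 for 14 without, KIFC1 not being tested. With dBRD9-A the medians were -0.03 for the 23 with a match and -0.04 for the 14 without. CDK1 and CDC25B, with the least negative values under knockdown, both have CHR and CCAAT matches.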

How the data were processed

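The authors deposited raw counts per transcript. The submitters' processing notes name STAR, featureCounts and hg19. For versions, strand and multi-mapping, the sources used here give nothing. The library kit was NEBNext Ultra by the methods and Ultra II by the labels. The methods name spike-in RNA, and 0 spike-in rows were in the tables, so libraries were scaled by TMM, which cannot show a change shared by all genes. In the deposited table of 1 library, 4535 rows held a broken gene symbol with the count as last word of the same cell, and that word was read as the count. Of 80 symbols turned into dates, 78 were restored through transcript identifiers.

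The deposited counts went into edgeR 4.0.16 under R 4.3.3 (robust quasi-likelihood, filterByExpr with minimum count 10, Benjamini-Hochberg adjustment over all genes tested). The dBRD9-A comparison used 6 libraries, the knockdown comparisons 9 and the difference of effects 15. Standard errors are the log2 fold change over the square root of F. The step was tested on simulated data with 200 genes changed. In the data 4906 genes were called with dBRD9-A and 6368 with knockdown, so recovery there may differ from the simulated rates. For dBRD9-A it recovered 16% of 1.1-fold and 66% of 1.2-fold changes. For knockdown it recovered 10.7% of 1.2-fold and 77.3% of 1.5-fold changes. Alternatives were limma 3.58.1 with voom, DESeq2 1.42.0, other scalings, no filter, summed transcript rows, a replicate block, 1 fit of all libraries and leaving out each library.

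Members with values in every library are the 6 largest rises and falls among those called in each main comparison, and CCNB1, CDK1, MKI67 and TOP2A. SPC25 is also given for the other comparison. From each further list up to 3 genes with the largest changes were named, besides FOXM1 and MYBL2. Genes that were among 3 or fewer of a list in their direction were named after their values were seen. The members and lists were chosen with earlier results of these data known. Loci are from GENCODE mapped to GRCh37, promoters from RefSeq.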

Additional observations from a re-analysis of the deposited data

How the results depend on the processing

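No call that passed the test changed direction under an alternative, while small values that did not pass can change sign. With dBRD9-A, 13 members were called, and 3 in 1 fit of all 15 libraries, whose spread is taken from both experiments together. Leaving out 1 library gave 8 to 16 calls, 8 without dBRD9-A replicate 2 (7 lower, 1 higher) and 16 without DMSO replicate 2 (15 lower, 1 higher). Of the 13 calls 3 were kept under all 15 alternatives, and 7 of the 30 members not called gained a call under some alternative. With knockdown 42 of 43 calls were kept under all 18 alternatives. Leaving out 1 library gave 42 to 43 calls for knockdown, 41 to 43 for each hairpin, 0 for the difference between hairpins and 42 to 43 for the difference of effects. For the difference between hairpins DESeq2 called 1 member, beside 133 higher and 29 lower among all genes. The fit of all 15 libraries called 4, all higher, beside 205 higher and 41 lower of 14560 genes. Replicate numbers are shared by the groups, but same-numbered libraries deviated together no more than others, so no pairing was assumed. Their correlations were -0.0315 to 0.0249 with dBRD9-A and -0.301 to 0.252 with knockdown. Libraries of different numbers gave -0.0471 to 0.0624 and -0.239 to 0.371. The value of 0.371 was between shSS18-SSX1-1 replicate 3 and shSS18-SSX1-2 replicate 2, and its source was not tested. With the replicate number as a block 11 members were called with dBRD9-A, 42 with knockdown and 0 between hairpins, where 8 in place of 20 members had an unadjusted p under 0.05. The common coefficient of variation between libraries was 8.91% in the knockdown fit and 2.78% in the dBRD9-A fit, at total counts of 18580419 to 27031647 per library.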
